A study of Mus musculus with 10 samples.

Results

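The genes of telomerase and of shelterin, the protein complex that caps chromosome ends, were followed while mouse fibroblasts were reprogrammed toward pluripotency. The 10 genes were chosen by symbol, Tert, Dkc1, Terf1, Terf2, Terf2ip, Tinf2, Acd, Pot1a, Pot1b and Rif1, out of 45706 genes in the deposited tables. All 10 were found, each under a single gene identifier, and all 10 passed the filter on low counts that left 20165 genes.

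Poly(A) RNA was sequenced as single reads of 50 nt in 5 groups of 2 libraries, which the design text calls biological replicates without naming the cultures or embryos, so p-values measure the spread between these libraries. Uninduced mouse embryonic fibroblasts (MEF), on a C57BL/6 x 129 background, carried the OKSM cassette (Oct4, Klf4, Sox2 and Myc) in Col1a1 and the transactivator M2rtTA in Rosa26, and were kept in MEF medium with no doxycycline. Cells of the same genotype were taken at day 3, 6 and 9 in embryonic stem cell medium, with 1 µg/ml doxycycline and 50 µg/ml ascorbic acid. The day 3 population was taken whole and the later populations after sorting for the surface epitope SSEA1, so the step from day 3 to day 6 combines time and sorting. The embryonic stem cells (ESC) were the V6.5 line, whose label gives the same strain background and no cassette. They were unsorted and grown on irradiated feeder cells. Age and sex of the embryos are not in the labels. Because whole populations were lysed, fewer cells of a type and less RNA per cell cannot be told apart.

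Telomerase adds telomeric repeats to chromosome ends. Its catalytic subunit Tert copies a template RNA, Terc, and dyskerin (Dkc1) holds that RNA together with other box H/ACA proteins. In shelterin, Terf1 and Terf2 bind double-stranded telomeric repeats, Terf2ip (Rap1) binds Terf2, Tinf2 bridges Terf1 and Terf2, and Acd (TPP1) joins Tinf2 to the single-strand binding proteins Pot1a and Pot1b. Mice have a pair of Pot1 genes where humans have a single one. Rif1, named for its yeast relative, acts in replication timing and in the choice of repair at DNA breaks. Pluripotent stem cells are known for active telomerase.

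Depth ranged from 29585876 to 38275024 estimated reads per library. The summed level of 13 fibroblast markers was, in CPM (counts scaled to a common library size), 50043.0 to 51478.5 in MEF, 4431.1 to 4473.1 at day 3, 317.3 to 317.8 at day 6, 99.9 to 106.2 at day 9 and 4334.1 to 4488.2 in ESC. The pluripotency gene Nanog was at 522.1 and 527.9 CPM in ESC and 69.2 and 71.2 at day 9. Col1a1 was at 1406.3 and 1379.7 CPM in ESC, and 12 of the 13 fibroblast markers reached 1 CPM there. The ESC libraries thus hold transcripts of fibroblast genes beside pluripotent ones, and their part in the ESC levels below was not tested. Epithelial markers summed to 15.2 to 18.4 CPM in MEF and at day 3, 1051.7 to 1097.3 at day 9 and 521.5 to 524.9 in ESC. As sums, blood and macrophage markers were highest in ESC (79.6 to 81.9), muscle markers in MEF (122.9 to 129.4) and endothelial markers at day 6 (21.3 to 22.4). Neural markers summed to 133.1 to 134.2 in ESC and 95.3 to 96.3 in MEF. Single genes carried much of these sums. In ESC, Lyz2 had a mean of 50.1 and Cd68 of 25.5. Csf1r (3.69 in MEF, 2.93 in ESC), Ptprc (0.928 and 0.838) and the neural Tubb3 (95.4 and 91.3) were higher in MEF. Of the endothelial markers, Cdh5 (mean of 9.39) and Kdr (11.3) were highest at day 6. Emcn was highest in MEF (4.15, against 0.0 at day 6) and Tie1 in ESC (2.48, against 1.16 at day 6). Xist stood at 0.742 and 0.793 CPM in MEF, between 929.6 and 1317.1 at day 3 to day 9, and at 11.3 and 9.01 in ESC. Ddx3y, from the Y chromosome, stood at 90.6 and 86.4 CPM in MEF, at or under 0.176 in every induced library, and at 26.1 and 26.8 in ESC. The Y-linked Eif2s3y was at 54.2 and 58.0 CPM in MEF, at or under 0.0887 in every induced library, and at 21.5 and 20.6 in ESC. Sex-linked expression thus differs between the induced libraries and both MEF and ESC, and cannot be told apart from the stage in either comparison.

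Sequences are shown for the genes on which the results turn. Of the 10 genes, 8 had an entry in the RefSeq promoter table (GRCm38.p6, from 250 bases before to 50 after the start site). The motifs searched on both strands were the Myc and Max E-box CACGTG, the GC box GGGCGG of Sp1-like factors, the Klf4 site in the forms GGGTGTGG and GGGCGTGG, and the Oct4 octamer ATGCAAAT. The GC box and GGGCGTGG share their first 5 letters and cannot match at the same position. Tert and Pot1b are shown because both had their highest mean CPM at day 9 rather than in ESC. For both, the day 6 and day 9 libraries overlapped. Pot1a is shown as the paralog that did not follow this order. Capitals mark matches.
Tert promoter, chr13:73626661-73626960, plus strand: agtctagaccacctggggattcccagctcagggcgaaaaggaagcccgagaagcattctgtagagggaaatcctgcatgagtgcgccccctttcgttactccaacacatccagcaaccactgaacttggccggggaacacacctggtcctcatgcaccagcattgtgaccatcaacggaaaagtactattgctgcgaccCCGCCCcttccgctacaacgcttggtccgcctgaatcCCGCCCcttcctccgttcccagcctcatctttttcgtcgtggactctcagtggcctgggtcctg
Pot1b promoter, chr17:55712587-55712886, minus strand: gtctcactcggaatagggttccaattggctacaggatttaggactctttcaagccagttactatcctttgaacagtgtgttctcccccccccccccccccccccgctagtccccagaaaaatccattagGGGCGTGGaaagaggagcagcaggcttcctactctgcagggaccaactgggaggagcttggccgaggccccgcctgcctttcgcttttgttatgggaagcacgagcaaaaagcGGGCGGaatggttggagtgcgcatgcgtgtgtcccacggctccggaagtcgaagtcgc
Pot1a promoter, chr6:25809169-25809468, minus strand: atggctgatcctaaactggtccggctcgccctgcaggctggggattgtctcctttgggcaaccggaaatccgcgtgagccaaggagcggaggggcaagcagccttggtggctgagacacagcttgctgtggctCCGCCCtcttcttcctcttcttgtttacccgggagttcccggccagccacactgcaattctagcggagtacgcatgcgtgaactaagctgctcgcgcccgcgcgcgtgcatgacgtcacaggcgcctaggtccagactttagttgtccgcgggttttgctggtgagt

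The Tert window held 2 GC boxes on the reverse strand, 51 and 14 bases before the start site. The Pot1b window held GGGCGTGG at 121 bases before the start and a GC box at 8 bases before it. In the Pot1a window the only match was a GC box at 117 bases before the start. A GC box was found in 5 of the 8 genes, against 35.7% of the 32851 promoters in the table, and GGGCGTGG in 1 of 8, against 5.33%. CACGTG, GGGTGTGG and ATGCAAAT were in 0 of the 8 windows. They occur in 7.15%, 3.56% and 1.74% of all promoters. These are matches of letters in short windows and were not set against binding data.

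A second sequence distinguishes 2 Terf1 transcripts. The transcript Terf1-001 contains an exon that Terf1-002 skips, exon 4 of 10, a coding exon of 87 bases or 29 codons that leaves the reading frame unchanged (chr1:15815886-15815972, plus strand, GRCm38). It is printed in capitals between the 15 flanking bases of its neighbours on each side.
Terf1 exon 4: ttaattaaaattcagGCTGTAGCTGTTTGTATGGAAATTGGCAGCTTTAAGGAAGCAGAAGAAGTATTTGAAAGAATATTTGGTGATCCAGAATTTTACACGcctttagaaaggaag

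The first question was how far the telomere genes move within 3 days of induction. Of the 10 genes, 9 rose and 1 fell at day 3 against MEF, each called at an adjusted p under 0.05 in edgeR's quasi-likelihood test over all genes, where 35.4% of all tested genes were higher and 29.5% lower (64.9% in either direction). DESeq2 called 6 higher and 1 lower in this comparison. The median log2 fold change of the 10 genes was 0.54 and that of all genes 0.08. With a minimum change of 2-fold added, 2 genes, Dkc1 and Rif1, were called higher, where 14.6% of all genes were. Day 6 against day 3 gave 7 genes higher (29.2% of all genes) and 2 lower (27.3%), so 9 of 10 where 56.5% of all genes were called. The lower calls depended on the method: DESeq2 and the length offset each gave 6 higher and 0 lower. Limma gave the same counts on either scale named below. Dkc1 and Rif1 again passed the 2-fold rule, with 9.26% of all genes higher by it. From day 6 to day 9, Terf1, Tinf2 and Rif1 rose, 3 of 10 where 15.7% of all genes were higher and 34.6% were called in either direction. None rose 2-fold, a rule that 5.18% of all genes passed as higher. In that step edgeR called 0 of 10 genes lower (18.9% of all genes), with 1, Terf2ip, at an unadjusted p under 0.05. DESeq2 called 0 lower, and limma 1 on log2(TPM + 1) and 0 on log2(TPM + 0.1), where TPM is the deposited abundance scaled for transcript length. ESC against day 9 gave 5 higher (36.1% of all genes) and 3 lower (33.5%), 8 of 10 where 69.6% of all genes were called. Each differed by less than 2-fold, where 18.6% of all genes were at least 2-fold higher. The balance of directions here depended on the method: the length offset gave 2 higher and 3 lower, DESeq2 and limma on log2(TPM + 1) 5 and 1 each, and limma on log2(TPM + 0.1) 5 and 0. ESC against MEF gave 8 higher (40.4%) and 1 lower (36.2%), or 9 of 10 against 76.6% of all genes, and 5 were at least 2-fold higher (25.5% of all genes). Day 9 against MEF gave 8 higher (41.7%), with 74.9% of all genes called in either direction, and 6 at least 2-fold higher (24.1%). For day 9 against MEF, edgeR called 0 lower (33.1% of all genes), 0 at an unadjusted p under 0.05, and DESeq2 and limma on either scale also called 0. However, edgeR called 2 lower when only the MEF and day 9 libraries were fitted, Acd (-0.19, adjusted p 0.0059) and Terf2ip (-0.19, adjusted p 0.026), and 1, Acd, with a filter of 10 CPM in 2 libraries (-0.12, adjusted p 0.047). The MEF, day 9 and ESC libraries are shared between these comparisons.

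**Figure D1:**
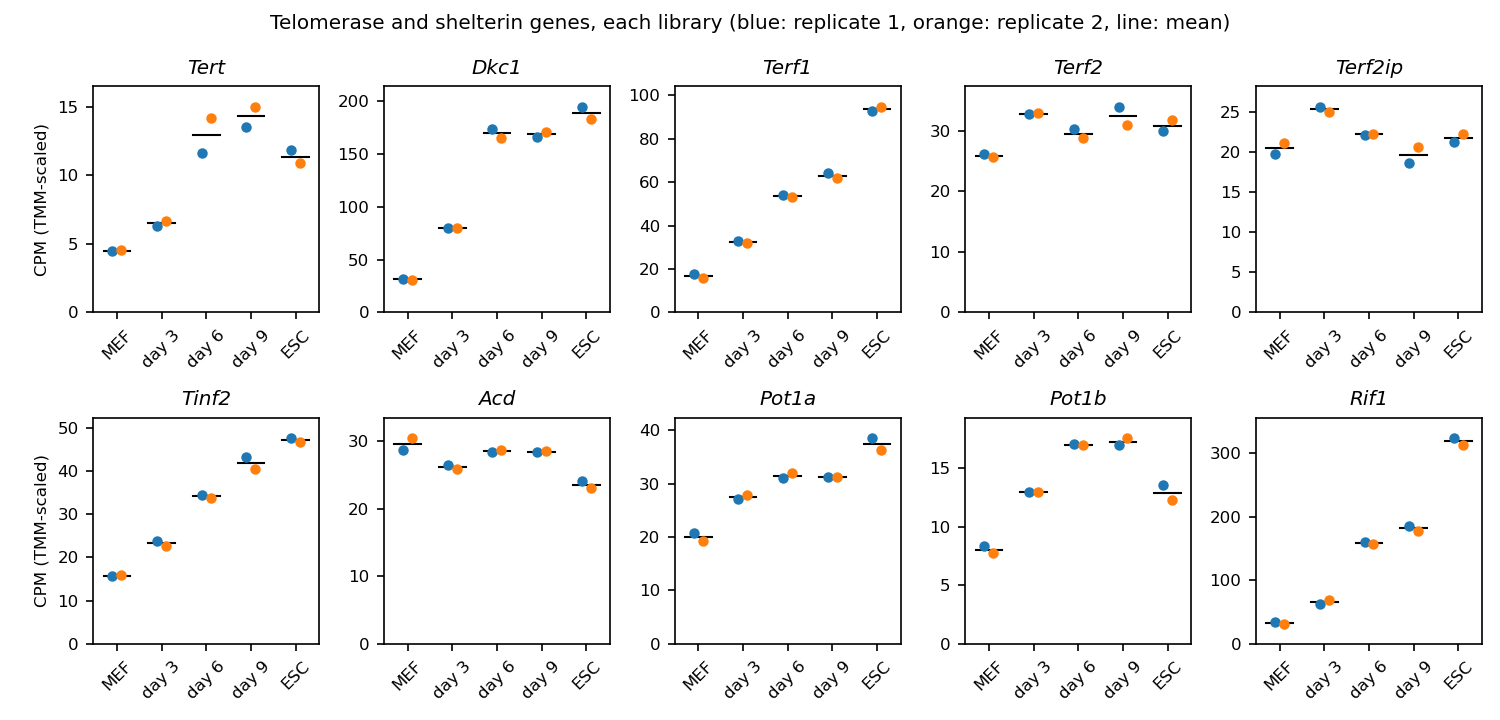
Level of each of the 10 genes in CPM (y axis, from 0, own scale per panel) in the 5 groups (x axis), with 1 point per library and a line at the group mean. Dkc1, Terf1, Tinf2 and Rif1 climb from MEF to ESC. Tert and Pot1b have their highest mean at day 9, where the libraries overlap day 6. Terf2, Terf2ip and Acd stay within 1.29-fold between group means of CPM.

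Telomerase came first in the order of roles. Tert (ENSMUSG00000021611.8, chromosome 13, 73626911 to 73649843, plus strand) was at 4.47 and 4.54 CPM in the MEF libraries, 6.3 and 6.68 at day 3, 11.6 and 14.2 at day 6, 13.5 and 15.0 at day 9, and 11.8 and 10.9 in ESC. All induced and ESC libraries lay above both MEF libraries, the ESC and day 6 libraries overlapped, and so did day 6 and day 9. These levels rest on 121 to 594 reads per library. Tert rose on the log2 scale by 0.52 (SE 0.13, edgeR adjusted p 0.0026) at day 3, and then by 0.99 (SE 0.11, edgeR adjusted p 2.9e-06) at day 6. Day 9 did not pass against day 6 (0.15, SE 0.1, edgeR adjusted p 0.3). Between MEF and day 9 the rise was 3.17-fold, more than the 2.51-fold between MEF and ESC. ESC was below day 9, with a log2 difference of -0.34 (SE 0.1, edgeR adjusted p 0.0095), a call that ended under DESeq2 (adjusted p 0.21), under limma on log2(TPM + 1) (0.22) and on log2(TPM + 0.1) (0.28), and without day 9 replicate 2 (-0.26, edgeR adjusted p 0.1) or ESC replicate 2 (-0.29, edgeR adjusted p 0.067). The day 3 rise had an adjusted p of 0.073 under DESeq2.

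Dkc1 (ENSMUSG00000031403.12, chromosome X, 75095854 to 75109777, plus strand) was far more abundant. It was at 32.1 and 30.9 CPM in MEF, 80.2 and 79.5 at day 3, 174 and 166 at day 6, 166 and 171 at day 9, and 195 and 183 in ESC. Only day 6 and day 9 overlapped. The rise was 2.54-fold at day 3 (log2 1.34, SE 0.05, edgeR adjusted p 6.4e-12) and a further 2.13-fold at day 6 (log2 1.09, SE 0.04, edgeR adjusted p 2.2e-11). Day 9 had reached 0.94 of the log2 difference between MEF and ESC. ESC exceeded day 9 by 0.17 (SE 0.04, edgeR adjusted p 0.0017), a call that ended when only protein-coding transcripts were summed (0.04, adjusted p 0.54) or with a length offset (0.25, adjusted p 0.12). Dkc1 is X-linked, and Xist differs between the induced libraries and both MEF and ESC. The 746 tested genes of the X chromosome had a median log2 fold change of 0.03 at day 3 against MEF, 0.18 at day 9 against MEF and -0.09 in ESC against day 9, where all other genes had 0.08, 0.19 and 0.01.

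On the scale that allows genes to be compared, TPM, Dkc1 ranked first of the 10 in every group (17.6 ± 3.43 in MEF, 108 ± 7.4 in ESC, SD, n = 2) and Tert last (0.65 ± 0.00224 in MEF, 1.72 ± 0.118 in ESC, SD, n = 2). The transcript models behind the deposited values limit this. That of Tert has 3426 bases, against 4313 exonic bases under the same identifier in GENCODE M21. The model of Acd has 1425 against 3154 and that of Tinf2 1736 against 2956, so reads from the remaining bases could not be assigned to these genes.

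Terf1 (ENSMUSG00000025925.12, chromosome 1, 15805646 to 15844052, plus strand), the shelterin protein that binds double-stranded repeats and is known to be abundant in pluripotent cells, rose at every step. It was at 17.5 and 15.7 CPM in MEF, 33.0 and 32.1 at day 3, 54.1 and 53.2 at day 6, 64.2 and 61.7 at day 9, and 92.6 and 94.8 in ESC. No group overlapped with the next. Its steps on the log2 scale were 0.97 for day 3 (SE 0.06, edgeR adjusted p 2.3e-09), 0.72 for day 6 (SE 0.05, edgeR adjusted p 1.7e-08), 0.23 for day 9 (SE 0.05, edgeR adjusted p 0.0016) and 0.58 (SE 0.05, edgeR adjusted p 4.4e-08) from day 9 to ESC. From MEF to ESC this came to 5.65-fold. The small step from day 6 to day 9 did not pass in limma on log2(TPM + 1) (adjusted p 0.14).

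Its 2 coding transcripts did not move alike. Terf1-002, which skips the exon printed above, was at 11.2 and 11.2 CPM in MEF and 71.9 and 75.3 in ESC, a 6.57-fold difference. Terf1-001, which contains the exon, was at 4.23 and 3.06 CPM in MEF, 6.79 and 7.62 at day 3, 8.13 and 8.71 at day 6, 9.96 and 6.28 at day 9, and 6.96 and 6.0 in ESC. Its share of the Terf1 reads was 24.1% and 19.4% in MEF, 20.6% and 23.7% at day 3, 15.0% and 16.4% at day 6, 15.5% and 10.2% at day 9, and 7.5% and 6.3% in ESC. Both ESC shares lay below every other library, and both MEF and both day 3 shares above all others. Terf1-001 also has 582 more bases at the end of its last exon and 18 more at its start in GENCODE M21, and the assignment of 50-nt reads to transcripts is a model estimate, so the share does not measure the exon alone. The share was not tested.

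Tinf2 (ENSMUSG00000007589.8, chromosome 14, 55674689 to 55681820, minus strand), the bridge between the double-strand binding proteins, followed the same order as Terf1. It was at 15.7 and 16.0 CPM in MEF, 23.8 and 22.7 at day 3, 34.4 and 33.8 at day 6, 43.3 and 40.4 at day 9, and 47.6 and 46.6 in ESC, with no overlap between neighbouring groups. Over the 4 steps its log2 values rose by 0.56 (SE 0.06, edgeR adjusted p 1.5e-06), 0.55 (SE 0.05, edgeR adjusted p 6.8e-07), 0.29 (SE 0.05, edgeR adjusted p 3.9e-04) and 0.17 (SE 0.05, edgeR adjusted p 0.0066). The last of these lost its call without day 9 replicate 2 (0.12, edgeR adjusted p 0.1) and with the length offset (adjusted p 0.076). Tinf2 overlaps Gmpr2, on the opposite strand, over 4512 bases, and the sources used here do not give the strand setting of the quantification.

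Terf2 (ENSMUSG00000031921.15, chromosome 8, 107069400 to 107096547, minus strand), the paralog of Terf1 that protects ends from being joined, changed little as a whole gene in CPM. It was at 26.2 and 25.7 CPM in MEF, 32.7 and 33.0 at day 3, 30.3 and 28.8 at day 6, 34.0 and 30.9 at day 9, and 29.9 and 31.8 in ESC. MEF was lowest, and the other groups overlapped with their neighbours in the order of levels. The rise at day 3 came to 0.34 on the log2 scale (SE 0.06, edgeR adjusted p 1.8e-04), an adjusted p of 0.063 under DESeq2 and of 0.21 over protein-coding transcripts only. From day 3 to day 6 the change was -0.15 (edgeR adjusted p 0.038), and without day 3 replicate 1, day 3 replicate 2 or day 6 replicate 2 the adjusted p was 0.072, 0.082 and 0.18. That direction turned to 0.13 with the length offset and with limma on log2(TPM + 1).

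Within Terf2 the composition changed more than the total in CPM. The near-identical coding transcripts Terf2-001 and Terf2-201, of 2666 and 2667 bases, together held 72.6% and 56.3% of the Terf2 reads in MEF, 47.7% and 41.8% at day 3, 25.9% and 33.5% at day 6, 33.9% and 25.1% at day 9, and 25.8% and 29.4% in ESC. The 3 transcripts annotated with a retained intron held 4.9% and 7.2% in MEF, 12.5% and 10.6% at day 3, 16.2% and 17.3% at day 6, 18.3% and 20.6% at day 9, and 25% and 27.2% in ESC, with no overlap between groups. In CPM, the coding pair went from 16.7 ± 3.19 (SD, n = 2) in MEF to 8.53 ± 1.14 (SD, n = 2) in ESC, and the retained-intron transcripts from 1.57 ± 0.412 to 8.05 ± 0.826 (SD, n = 2). The shorter coding transcript Terf2-002 went from 2.98 ± 0.419 to 8.4 ± 0.0945 CPM (SD, n = 2). Summed over protein-coding transcripts only, Terf2 differed between ESC and MEF by -0.19 on the log2 scale (adjusted p 0.19), against 0.25 (SE 0.06, edgeR adjusted p 0.0018) over all transcripts.

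**Figure D2:**
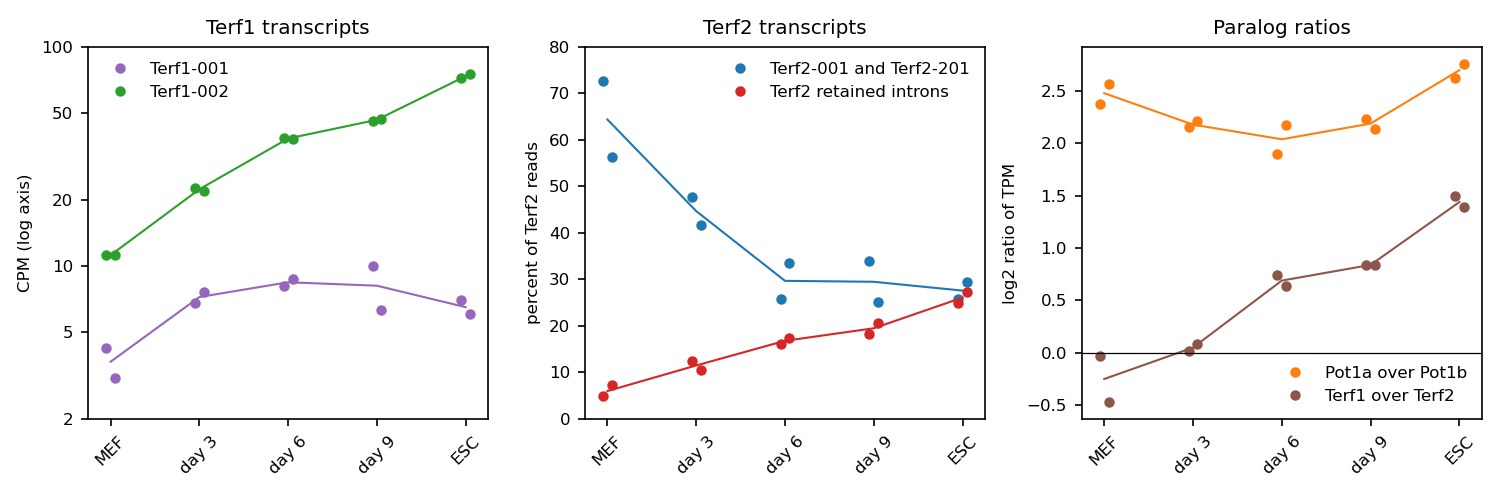
Left, CPM of the 2 coding Terf1 transcripts on a log axis; middle, percent of Terf2 reads on the coding pair and on retained-intron transcripts; right, log2 ratio of TPM between paralogs. Points are libraries and lines join group means over MEF, day 3, 6, 9 and ESC. Terf1-002 rises to 73.6 CPM in ESC while Terf1-001 stays at or under 9.96, and the retained-intron share of Terf2 goes from 6.0% to 26.1%.

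Terf2ip (ENSMUSG00000033430.9, chromosome 8, 112011398 to 112020528, plus strand), the partner of Terf2, was at 19.8 and 21.1 CPM in MEF, 25.7 and 25 at day 3, 22.2 and 22.3 at day 6, 18.7 and 20.7 at day 9, and 21.3 and 22.3 in ESC. Only day 3 stood above all other groups. The rise at day 3 was 0.31 on the log2 scale (SE 0.07, edgeR adjusted p 8.1e-04), with an adjusted p of 0.18 under DESeq2. ESC and MEF differed by 0.09 (SE 0.07, edgeR adjusted p 0.23), which became 0.43 with library-size scaling. The change at day 6 was -0.19 (edgeR adjusted p 0.02), with adjusted p of 0.085, 0.075 and 0.062 without day 3 replicate 1, day 6 replicate 1 or day 6 replicate 2. Without day 9 replicate 2, day 9 passed as lower than day 6 (-0.25, adjusted p 0.032) and ESC as higher than day 9 (0.22, adjusted p 0.027).

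Acd (ENSMUSG00000038000.9, chromosome 8, 105695860 to 105701102, minus strand), which links Tinf2 to the Pot1 proteins and recruits telomerase, was the one member lower in ESC than in MEF. It was at 28.7 and 30.4 CPM in MEF, 26.4 and 25.9 at day 3, 28.4 and 28.6 at day 6, 28.3 and 28.5 at day 9, and 24.0 and 23.0 in ESC. The ESC libraries were the lowest of all. ESC differed from MEF by -0.33 (SE 0.05, edgeR adjusted p 5.7e-05) and from day 9 by -0.27 (SE 0.05, edgeR adjusted p 3.6e-04), the first turning to 0.01 with library-size scaling and the second at an adjusted p of 0.084 under DESeq2. The change at day 3 (-0.18, edgeR adjusted p 0.0093) lost its call without MEF replicate 2 (adjusted p 0.12) or day 3 replicate 2 (adjusted p 0.058). Acd overlaps Carmil2 on the opposite strand over 2328 bases.

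The Pot1 paralogs parted at the last step. Pot1a (ENSMUSG00000029676.13, chromosome 6, 25743737 to 25809246, minus strand) was at 20.8 and 19.3 CPM in MEF, 27.2 and 27.9 at day 3, 31.1 and 31.9 at day 6, 31.3 and 31.3 at day 9, and 38.5 and 36.3 in ESC, its highest group. Pot1b (ENSMUSG00000024174.8, chromosome 17, 55651951 to 55712628, minus strand) was at 8.37 and 7.76 CPM in MEF, 13.0 and 13.0 at day 3, 17.1 and 17.0 at day 6, 17.0 and 17.6 at day 9, and 13.6 and 12.3 in ESC. Its ESC libraries overlapped day 3 and lay below both later stages. Day 6 and day 9 overlapped for Pot1b, with a log2 difference of 0.02 (SE 0.07, edgeR adjusted p 0.87). In TPM its mean was 2.43 at day 6 and 2.32 at day 9.

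From day 9 to ESC, Pot1a rose by 0.26 (SE 0.05, edgeR adjusted p 5.5e-04) and Pot1b changed by -0.42 (SE 0.07, edgeR adjusted p 1.4e-04). The Pot1a call ended with the length offset (0.07, adjusted p 0.56) and in limma on log2(TPM + 1) (adjusted p 0.054), and the Pot1b call in limma on log2(TPM + 0.1) (adjusted p 0.056). Earlier, Pot1a rose by 0.46 (SE 0.06, edgeR adjusted p 6.9e-06) and Pot1b by 0.69 (SE 0.08, edgeR adjusted p 3.9e-06) at day 3. At day 6 they rose by 0.19 (edgeR adjusted p 0.0069) and 0.39 (edgeR adjusted p 4.2e-04). The Pot1a step at day 6 had an adjusted p of 0.053 without day 3 replicate 1, 0.059 without day 6 replicate 2 and 0.18 under DESeq2.

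The log2 ratio of Pot1a over Pot1b in TPM was 2.38 and 2.57 in MEF, 2.16 and 2.21 at day 3, 1.9 and 2.18 at day 6, 2.23 and 2.14 at day 9, and 2.63 and 2.76 in ESC. Both ESC ratios exceeded those of every other library. Over protein-coding transcripts only the ratio was lower, with means of 1.53 in MEF, 0.93 at day 9 and 1.8 in ESC, and the ESC libraries were again the highest. The log2 ratio of Terf1 over Terf2 in TPM went from -0.03 and -0.47 in MEF through 0.02 and 0.08 at day 3, 0.74 and 0.64 at day 6, and 0.84 and 0.84 at day 9 to 1.5 and 1.39 in ESC. Per length, Terf1 was thus below Terf2 in both MEF libraries and 2.72-fold above it in ESC. Over protein-coding transcripts only, the mean log2 ratio was 0.3 in MEF and 2.92 in ESC, or 7.55-fold in ESC. No test of these ratios was made.

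**Figure D3:**
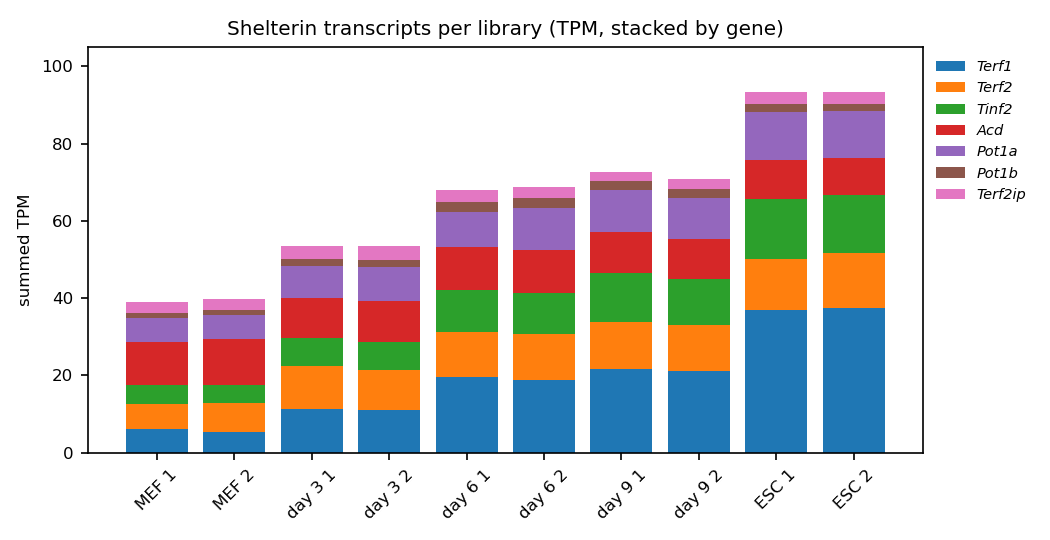
Summed TPM of the 7 shelterin genes (y axis) in each of the 10 libraries (x axis), stacked by gene. The sum goes from a mean of 39.3 in MEF to 93.5 in ESC, and Terf1 makes up 14.7% of it in MEF and 39.8% in ESC.

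Summed over the 7 shelterin genes, the level was 38.9 and 39.7 TPM in MEF, 53.6 and 53.5 at day 3, 68.0 and 68.9 at day 6, 72.6 and 70.8 at day 9, and 93.4 and 93.5 in ESC. Most of the difference lay in Terf1, which supplied 14.7% of the sum in MEF and 39.8% in ESC. Acd went from 29.3% to 10.3% and Terf2ip from 7.1% to 3.4%. Pot1b stayed the smallest part, at 2.9% in MEF and 2.1% in ESC.

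Rif1 (ENSMUSG00000036202.13, chromosome 2, 52072832 to 52122383, plus strand) had the widest range of the 10 genes. It was at 34.6 and 30.8 CPM in MEF, 62.8 and 68.6 at day 3, 159.9 and 157 at day 6, 186 and 177 at day 9, and 323 and 313 in ESC, with no overlap between groups. It rose 9.76-fold from MEF to ESC (log2 3.29, SE 0.06, edgeR adjusted p 1.2e-15). The steps were 1.01 (SE 0.06, edgeR adjusted p 1.5e-09), 1.27 (SE 0.05, edgeR adjusted p 3.7e-11), 0.2 (SE 0.05, edgeR adjusted p 0.0046) and 0.81 (SE 0.05, edgeR adjusted p 1.2e-09). The call from day 6 to day 9 ended without day 9 replicate 1 (0.16, adjusted p 0.056), with the length offset (adjusted p 0.19), in limma on log2(TPM + 1) (adjusted p 0.53) and over protein-coding transcripts only (0.13, adjusted p 0.35). Day 9 had covered 0.75 of the log2 difference between MEF and ESC, and Terf1 0.77. The transcript Rif1-005, labelled a processed transcript in the deposited tables, held 17.0% and 16.7% of the Rif1 reads at day 9 and 6.8% and 7.0% in ESC. GENCODE M21 gives Rif1-005 2191 coding bases, but the protein-coding sum follows the deposited labels and leaves it out.

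**Figure D4:**
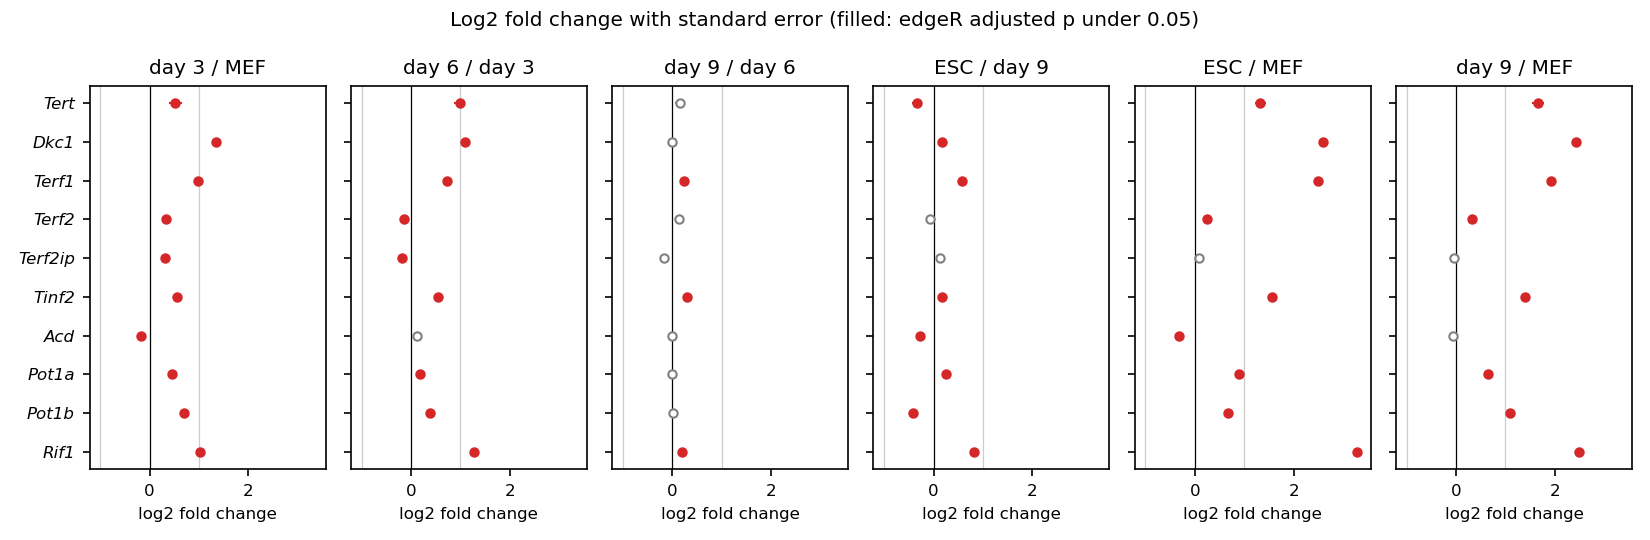
Log2 fold change (x axis) of each gene (y axis) in the 6 comparisons, with standard errors and filled points at an edgeR adjusted p under 0.05. Grey lines mark a 2-fold change. In ESC over day 9, Rif1 (0.81) and Terf1 (0.58) are to the right of 0 and Pot1b (-0.42), Tert (-0.34) and Acd (-0.27) to the left.

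Genes most alike in pattern were taken by the Pearson correlation of log2 CPM over the 10 libraries among 6689 protein-coding genes, as a description. The libraries form 5 groups and share depth and scaling, and between 279 and 626 genes reached a correlation over 0.95 with a given member. Closest to Tert were Noc2l (0.992), Syne4 (0.991) and Mthfd1 (0.99). Closest to Terf1 were Cbx1 (0.999), which encodes a heterochromatin protein, Zfp568 (0.998) and Arhgap19 (0.998). For Rif1 they were the histone chaperone gene Nasp (0.999), Exosc2 (0.998) and Zfp568 (0.998). For Dkc1 they were Mcm8 (0.999), Eif4a2 (0.999) and Otud4 (0.998).

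Other genes of telomere maintenance were taken from fixed lists. The 14 listed genes of telomerase assembly and the box H/ACA proteins included 13 that were tested. Between ESC and MEF, 12 of the 13 were higher and 1 lower, where 40.4% of all tested genes were higher and 36.2% lower. Their median log2 fold change was 1.36, against 0.1 for all genes. Apart from Tert and Dkc1, 10 of 11 were higher. Nhp2, a core box H/ACA protein, rose from 38.7 CPM in MEF to 95.6 at day 6 and 141 in ESC (log2 1.87), and Tep1, a telomerase-associated protein, was the one gene lower (log2 -0.8). Terc itself was not tested, with 0 to 9 reads in any library. Telomerase RNA lacks a poly(A) tail, and the libraries were made from poly(A) RNA. A comparison list held the box C/D proteins Fbl, Nop56, Nop58 and Nhp2l1, and the nucleolar proteins Ncl and Npm1. In this list, 6 of 6 genes were higher (40.4% of all genes), with a median of 1.18. They ranged from Nop56 at a log2 of 1.79 to Nhp2l1 at 1.04.

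Among 18 genes of telomere replication and end processing, 14 were higher (40.4% of all genes) and 3 lower (36.2%) in ESC than in MEF, with a median of 0.8 against 0.1 for all genes. The helicase-nucleases and helicases Dna2 (log2 3.44), Blm (2.83) and Pif1 (1.89) and the nucleases Exo1 (2.35) and Fen1 (1.55) were each called with at least a 2-fold change in 3 or more of the 6 comparisons. The tankyrase gene Tnks, whose product modifies Terf1, was lowest in the list, at -0.57. Of the CST complex, which fills in the complementary strand, Ctc1 rose (log2 1.53), Obfc1 rose by 0.27 and Ten1 fell by 0.79 on the log2 scale.

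In the list of telomeric chromatin and Rif1 partners, 8 of 11 genes were lower in ESC than at day 9 (33.5% of all genes) and 3 were higher (36.1%). The list had a median of -0.22 and all genes 0.0, while the 10 members had a median of 0.15. In ESC against MEF, 6 genes of the list were higher (40.4% of all genes) and 3 lower (36.2%), with a median of 0.16. For day 9 against MEF, 8 were higher (41.7%) and 1 lower (33.1%), with a median of 0.7. Trp53bp1, the partner of Rif1 at DNA breaks, was at 62.0 CPM in MEF, 156 at day 6, 141 at day 9 and 59.0 in ESC, so it differed by -1.26 between ESC and day 9 where Rif1 differed by 0.81. The histone methyltransferase gene Suv39h1 was at 75.1 CPM at day 9 and 19.4 in ESC (log2 -1.95), and its paralog Suv39h2 at 34.2 and 26.9 (log2 -0.35). From MEF to ESC, Suv39h2 rose (log2 2.15) and Suv39h1 was lower (-0.97).

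**Figure D5:**
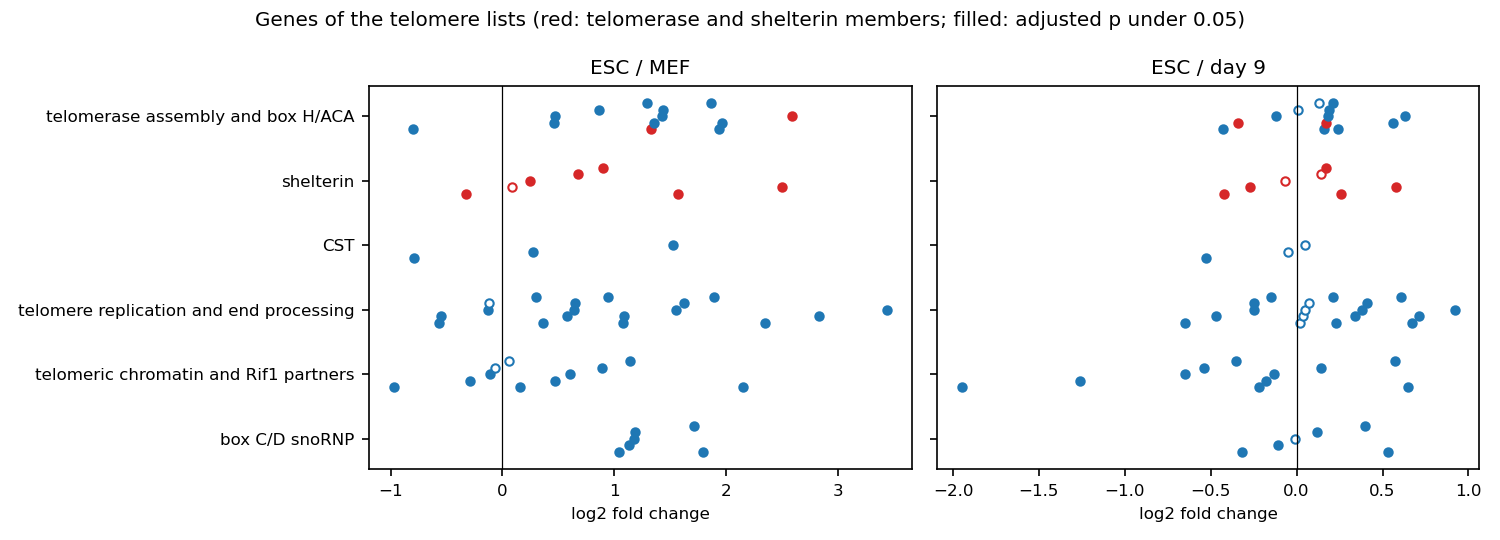
Log2 fold change (x axis) of each tested gene in 6 of the lists (y axis; points are spread vertically for legibility) for ESC over MEF and ESC over day 9. Red points are the 9 telomerase and shelterin genes that stand in these lists, and filled points passed at an edgeR adjusted p under 0.05. Dna2 lies farthest to the right in ESC over MEF, at 3.44, and Suv39h1 farthest to the left in ESC over day 9, at -1.95.

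The list of genes tied to recombination-based telomere lengthening or to a 2-cell-like state held Zscan4c, Zscan4d, Zscan4f, Tcstv1, Tcstv3, Dppa2 and Dppa4. In ESC against day 9, 7 of 7 were higher, each at least 2-fold, where 36.1% of all genes were higher and 18.6% at least 2-fold higher. The Zscan4 and Tcstv genes had 0 or 1 read in each library outside ESC. They passed the filter on low counts only through ESC, so their direction was fixed in advance and is no test. Zscan4c had a mean of 24.8 CPM in ESC and 0.0 in each other group, and Tcstv3 a mean of 1.23 in ESC. Dppa2 and Dppa4 were the genes called higher at day 9 than at day 6, Dppa2 at a mean of 0.854 CPM and Dppa4 at 0.97, against 134.5 and 112.4 in ESC. The Zscan4 and Tcstv genes have near-identical copies, among which reads may be divided.

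Among 9 factors known to act on Tert, 2 were higher (40.4% of all genes) and 6 lower (36.2%) in ESC than in MEF. At day 3 against MEF, 8 were higher (35.4%) and 1 lower (29.5%). At day 9, 7 were higher (41.7%) and 2 lower (33.1%) against MEF. Against day 6, 1 was higher at day 9 (15.7%) and 7 lower (18.9%). Myc was at 118.2 and 116.9 CPM in MEF, 275.9 and 275.1 at day 3, 277.7 and 294.3 at day 9, whereas the ESC libraries, for which no cassette is recorded, were at 19.0 and 18.4. Mycn was at 1.33 and 1.01 CPM in MEF, 59.4 and 59.2 at day 9 and 95.2 and 98.3 in ESC. Klf4 was at 329.9 and 320.3 CPM in MEF, 402.4 and 419.4 at day 9 and 178.8 and 185.5 in ESC. Mxd4, which competes with Myc for Max, had means of 134.5 CPM in MEF, 204.3 at day 3, 50.2 at day 9 and 23.0 in ESC. Between ESC and MEF, Mxd4 differed by -2.54 on the log2 scale. For Myc and Klf4, cassette and endogenous transcripts cannot be separated here.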

How the data were processed

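Per the submitters' processing notes, the authors quantified transcripts with Salmon 0.8.2 on mm10. The index, annotation release, strand setting and filters are not given in the sources used here. Per the labels' protocols, a stranded poly(A) kit was used. The deposited tables hold, for 109617 transcripts, an estimated count, a TPM value and an effective length, the last identical in all tables. The members and lists were chosen with earlier results of these data known.

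For each gene the estimated counts of its transcripts were added up and rounded to whole numbers. Coordinates come from GENCODE M21 (GRCm38), in which 98.8% of the genes were found by ID. Genes passing filterByExpr (minimum count 10, minimum total 15) were scaled by TMM and fitted over all 10 libraries with edgeR 4.0.16 (R 4.3.3). P-values were adjusted by Benjamini-Hochberg over 20165 genes and called under 0.05. SE is the size of a log2 fold change divided by the root of its F statistic. CPM uses TMM-scaled library sizes. The alternatives were DESeq2 1.42.0, limma 3.58.1 on log2(TPM + 1) and log2(TPM + 0.1), other filters, scalings and sample sets, a length offset, protein-coding transcripts only, a replicate block and each replicate left out. The tests were tested on simulated data.

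Named beside the members were the list genes with the largest and smallest difference between ESC and MEF, those changed 2-fold in 3 or more comparisons, and, for Tert, Terf1, Rif1 and Dkc1, the 3 most correlated protein-coding genes (mean of at least 5 CPM, range of at least 1 on the log2 scale). Trp53bp1, Obfc1, Klf4 and the remaining names in the recombination list were chosen after their values were seen. The list with the box C/D proteins is named in full only to give its content. No pair of replicates agreed within sampling noise: chi-square per degree of freedom was 2.78 to 5.05.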

Additional observations from a re-analysis of the deposited data

How the results depend on the processing

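With a 2-fold minimum added, the number of the 10 genes called went from 10 to 2 at day 3 against MEF, 9 to 2 at day 6 against day 3, 3 to 0 at day 9 against day 6, 8 to 0 for ESC against day 9 and 9 to 5 for ESC against MEF. Limma on log2(TPM + 0.1) called 1 gene at day 9 against day 6 and 5 (5 higher, 0 lower) for ESC against day 9, and the length offset called 5 (2 higher, 3 lower) for the latter. The cause was not tested. All other alternatives that kept every replicate stayed within 1.5 times of each count. Leaving out each replicate, with a lone library assumed to vary like the other groups, gave 9 to 10, 6 to 9, 2 to 5, 7 to 8, 9 to 9 and 8 to 8 genes for the 5 comparisons above and day 9 against MEF. The 5 at day 9 against day 6 came without day 9 replicate 2.

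Directions turned in small changes. For Terf2, day 6 against day 3 was 0.13 with the length offset, 0.13 with limma on log2(TPM + 1) and 0.14 on log2(TPM + 0.1), and over protein-coding transcripts ESC against MEF was -0.19 and day 9 against MEF -0.06. Library-size scaling, which shifts the median of all genes to 0.29 at day 3, 0.48 at day 9 and 0.44 in ESC against MEF, turned Terf2ip to 0.24 at day 9 against MEF and Acd to 0.03, 0.23 and 0.01 at day 3, day 9 and ESC against MEF. The ratio of Terf1 over Terf2 at day 3 was -0.01 in CPM. Over all alternatives that kept every replicate, 540 of the members' values kept their call or lack of one, 38 lost a call, 13 gained one and 9 turned. A turn was counted only where either fit made a call, so uncalled values among the 540 may have changed direction.

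With the replicate block, 4 genes were called at day 9 against day 6 and 9 for ESC against day 9, Terf2ip being added in both, and it changed no other call. The replicate numbers showed no pairing: same-numbered libraries had correlations of -0.02 to 0.022. Tert, at 121 to 594 reads per library, has the least depth of the 10.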

Other observations

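Transcript composition differed between stages in other members too, given here as values. For Pot1a, the transcripts Pot1a-001 and Pot1a-201 share 1920 coding bases and differ outside them. Pot1a-201 held 15.5% and 35.6% of the Pot1a reads in the MEF libraries, so the replicates were far apart, 17.7% and 17.8% at day 3, 17.5% and 15.9% at day 9, and 26.2% and 29.2% in ESC. For Rif1, Rif1-004, a processed transcript by its label, stood at 8.19 and 8.69 CPM at day 9 and 34.2 and 30.9 in ESC, while Rif1-005 stood at 31.6 and 29.6 CPM at day 9 and 22.0 and 22.0 in ESC. GENCODE M21 gives Rif1-004 2218 coding bases and Rif1-005 2191. Terf1-004, annotated with no coding bases, was at 2.09 and 1.29 CPM in MEF and 13.0 and 13.4 in ESC.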
